A study of Mus musculus with 12 samples.

Results

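The genes described here are 32 known targets and regulators of the p53 pathway, read from the 16860 genes tested on 12 GeneChip Mouse Gene ST 2.0 arrays. They were picked by symbol, and where the array had several rows for a gene the row with the highest mean over all arrays was taken. Of the 32 genes, 28 had a row of their own and 27 of these lay above the filter on dim rows. The 27 tested genes are the ones meant by "pathway genes" below. Eda2r, a receptor gene, lay below the filter, with log2 values between 3.46 and 4.48 on the 12 arrays. Gadd45a and Ddb2 lay on rows annotated to several genes, and those rows were not used. Rows for Trp53 and Bax were not analysed here, so the level of the p53 transcript itself is not reported.

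All samples came from Kit-enriched mouse bone marrow cells with floxed Tet2 alleles and a tamoxifen-activated Cre (CreER), infected with a MigR1 retrovirus that carries AML1-ETO and GFP. AML1-ETO is a leukaemia fusion protein, and Tet2 is an enzyme that oxidises methylated cytosine. After replating in methylcellulose the cells grew in suspension with SCF, IL-3 and IL-6. Tet2-/- cultures had received 200 nM 4-hydroxytamoxifen (4-OHT) for 2 passages (4 days), and Tet2fl/fl cultures had received ethanol. The groups, with 3 arrays each, were Tet2-/- and Tet2fl/fl cells at passage 10 and Tet2-/- and Tet2fl/fl cells at passage 2. GFP-positive cells with CD16/32 and without CD11b or Gr1 were sorted before RNA was made. Every group thus carried AML1-ETO and CreER, while only Tet2-/- cells met 4-OHT, so that loss of Tet2, active Cre and 4-OHT cannot be told apart. The labels do not say whether replicates were separate cultures, so p-values cover only how these samples spread.

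Tet2 itself had log2 values of 9.92, 9.64 and 9.93 in Tet2-/- cells and 9.91, 9.80 and 9.93 in Tet2fl/fl cells at passage 10 (replicates 1 to 3), and 9.97, 9.89 and 9.98 in Tet2-/- cells and 9.94, 9.89 and 10.08 in Tet2fl/fl cells at passage 2. The genotypes overlapped at both passages, and 1 value for the whole gene does not check the deletion. Fcgr3, which encodes CD16, lay between 10.57 and 11.13 on the 12 arrays, and Itgam, which encodes CD11b, between 7.04 and 8.78. Ly6g, which encodes a Gr1 antigen, had 6.34, 7.61 and 6.92 in Tet2-/- cells against 5.54, 5.61 and 5.76 in Tet2fl/fl cells at passage 10. At passage 2 it had 5.06, 6.32 and 6.05 in Tet2-/- cells against 4.77, 5.595 and 6.80 in Tet2fl/fl cells. The genotypes of Ly6g were apart at passage 10 (1.32 ± 0.48, adjusted p = 0.338) and overlapped at passage 2, and its part in the genotype results was not tested. Array medians ran from log2 5.57 to 5.68. Arrays with the same replicate number deviated together across groups (correlation of deviations 0.201 to 0.517 over 18 pairs), so results of a model that adds replicate number as a block are given where a call changes. Unless stated, values after ± are standard errors from limma's fit with 3 arrays per group, differences are in log2 units, and "passed" means an adjusted p under 0.05 in limma's moderated test over all 16860 genes. The number of arrays limits the precision.

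The tumour suppressor p53 is a transcription factor that is stabilised by DNA damage and other stress. It binds elements made of paired half-sites and activates genes for cell cycle arrest, apoptosis, metabolic restraint and DNA repair, together with inhibitors of itself such as Mdm2. In blood-forming cells it limits the self-renewal of stem cells and the survival of damaged progenitors. An indirect output runs through p21, the product of Cdkn1a, which keeps the DREAM complex on the promoters of cell cycle genes and lowers them.

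The p53 element was looked for in RefSeq promoter windows (GRCm38.p6, 300 bases each, 250 of them before the start) of the 20 tested genes that have one. The search was for the p53 consensus, 2 abutting 10-base half-sites that each hold the core CNNG. The C and G of each core had to match, and at most 3 mismatches were allowed at all other positions, the middle bases of the cores included. The consensus reads the same on both strands. It was found for 6 of the 20 genes, against 1.63% of the 27025 genes with a window. These 6 sites are shown because p53 is known to act through such elements, with the CNNG cores in capitals:
Cdkn1a: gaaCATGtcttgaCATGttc
Ccng1: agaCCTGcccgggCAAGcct
Bbc3: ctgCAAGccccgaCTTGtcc
Aen: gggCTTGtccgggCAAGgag
Sesn1: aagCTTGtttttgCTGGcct
Tigar: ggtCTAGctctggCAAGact
The sites lie at chr17:29090928-29090947 (Cdkn1a, plus strand, 51 bases before an annotated start that is 2790 bases upstream of the other one), chr11:40755462-40755481 (Ccng1, minus strand, 195 bases before the start), chr7:16309486-16309505 (Bbc3, plus, 97 bases before 1 of its starts), chr7:78895937-78895956 (Aen, plus, 121 bases before 1 start and 10 after another), chr10:41887266-41887285 (Sesn1, plus, 173 before 1 start) and chr6:127109746-127109765 (Tigar, minus, 213 before the start). The sites of Cdkn1a and Ccng1 had 1 mismatch each, which 0.067% of all windows reach, and the other 4 had 3. A match describes the letters only. The windows of Ddit4, Btg2, Trp53i11, Mdm4 and Mdm2, described below, held no such match. Elements outside these 300 bases, such as in introns, were not looked for, so a gene without a match may still have one. No window was at hand for Pmaip1, Trp53inp1, Zmat3, Tnfrsf10b, Perp, Rrm2b and Xpc.

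Bbc3 was the gene among these 6 that differed between passages, as described below. The 250 bases before its start (chr7:16309333-16309582, plus strand, GRCm38.p6) are shown with the element in capitals, beside the same stretch of Cdkn1a (chr17:29090729-29090978, plus strand), which did not pass in any comparison:
Bbc3: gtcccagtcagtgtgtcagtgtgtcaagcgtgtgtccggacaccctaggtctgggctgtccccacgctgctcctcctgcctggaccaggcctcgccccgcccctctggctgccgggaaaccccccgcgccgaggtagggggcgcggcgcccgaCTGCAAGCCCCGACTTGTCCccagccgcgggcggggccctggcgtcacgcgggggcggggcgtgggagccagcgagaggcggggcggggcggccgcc
Cdkn1a: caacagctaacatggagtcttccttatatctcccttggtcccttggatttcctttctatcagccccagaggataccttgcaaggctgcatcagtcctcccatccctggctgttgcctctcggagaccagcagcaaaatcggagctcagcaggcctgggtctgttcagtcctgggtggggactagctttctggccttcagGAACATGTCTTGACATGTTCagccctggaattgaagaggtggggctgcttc

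The first comparison asked what longer culture changed, setting passage 10 against passage 2. Averaged over both genotypes, 6 of the 27 pathway genes passed, where 7.77% of all genes did. Ddit4, Btg2, Bbc3 and Trp53inp1 rose at passage 10, and Trp53i11 and Mdm4 fell. The median difference of the 27 genes was 0.11, against 0.0383 for all genes tested, and 21 of 27 were positive, against 59.8% of all genes. The median was 0.166 without Tet2fl/fl p10 replicate 1 and 0.0596 without Tet2fl/fl p2 replicate 1. At an unadjusted p under 0.05 there were 11 of 27, against 26.8% of all genes. With the replicate block 10 passed, against 13.2% of all genes, the added ones being Mdm2, Sesn2, Zmat3 and Xpc, all higher.

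Ddit4, which encodes an inhibitor of mTORC1 signalling also known as REDD1, had the largest mean passage difference of the 27 genes. In Tet2-/- cells its log2 values were 10.57, 10.77 and 10.51 at passage 10 against 9.69, 9.67 and 9.14 at passage 2. Tet2fl/fl cells had 10.05, 9.68 and 10.06 at passage 10 against 9.42, 9.22 and 9.01 at passage 2. Within each genotype all passage 10 arrays lay above all passage 2 arrays, and the highest levels were those of Tet2-/- cells at passage 10. The mean passage effect was 0.91 ± 0.12 (1.88-fold, adjusted p = 0.00891). The effect was 1.12 ± 0.17 in Tet2-/- cells (adjusted p = 0.0224). It was 0.71 ± 0.17 in Tet2fl/fl cells (adjusted p = 0.401), and the test of the difference between genotypes gave 0.40 (adjusted p = 0.999).

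Trp53i11, whose human counterpart was described as induced by p53 during apoptosis, fell at passage 10. In Tet2-/- cells it had 7.32, 7.71 and 7.33 at passage 10 against 8.28, 8.16 and 8.38 at passage 2. Tet2fl/fl cells had 7.27, 7.50 and 7.36 at passage 10 against 8.03, 7.98 and 8.27 at passage 2. All 6 passage 10 arrays lay below all 6 passage 2 arrays. This separation was seen for 3.8% of all genes and in no other pathway gene. The mean passage effect was -0.77 ± 0.09 (adjusted p = 0.00891), with -0.82 ± 0.12 in Tet2-/- cells (adjusted p = 0.0224) and -0.71 ± 0.12 in Tet2fl/fl cells (adjusted p = 0.329). Ddit4 and Trp53i11 passed in the mean passage comparison with each of the 12 arrays left out in turn.

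Btg2 encodes an antiproliferative protein that recruits the mRNA deadenylation machinery. Its values in Tet2-/- cells were 9.25, 9.55 and 9.19 at passage 10 against 7.88, 8.77 and 8.36 at passage 2. Tet2fl/fl arrays gave 8.62, 8.34 and 9.09 at passage 10 against 8.03, 8.21 and 8.25 at passage 2. The passages did not overlap in either genotype, and the nearest arrays in Tet2fl/fl cells were 8.34 at passage 10 and 8.25 at passage 2. The mean effect was 0.76 ± 0.16 (adjusted p = 0.0228). Tet2-/- cells alone had an effect of 0.99 ± 0.22 (adjusted p = 0.043). The mean effect of Btg2 missed the threshold without Tet2-/- p10 replicate 2 (0.0556), Tet2-/- p2 replicate 3 (0.0506) or Tet2fl/fl p2 replicate 3 (0.0528).

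**Figure D1:**
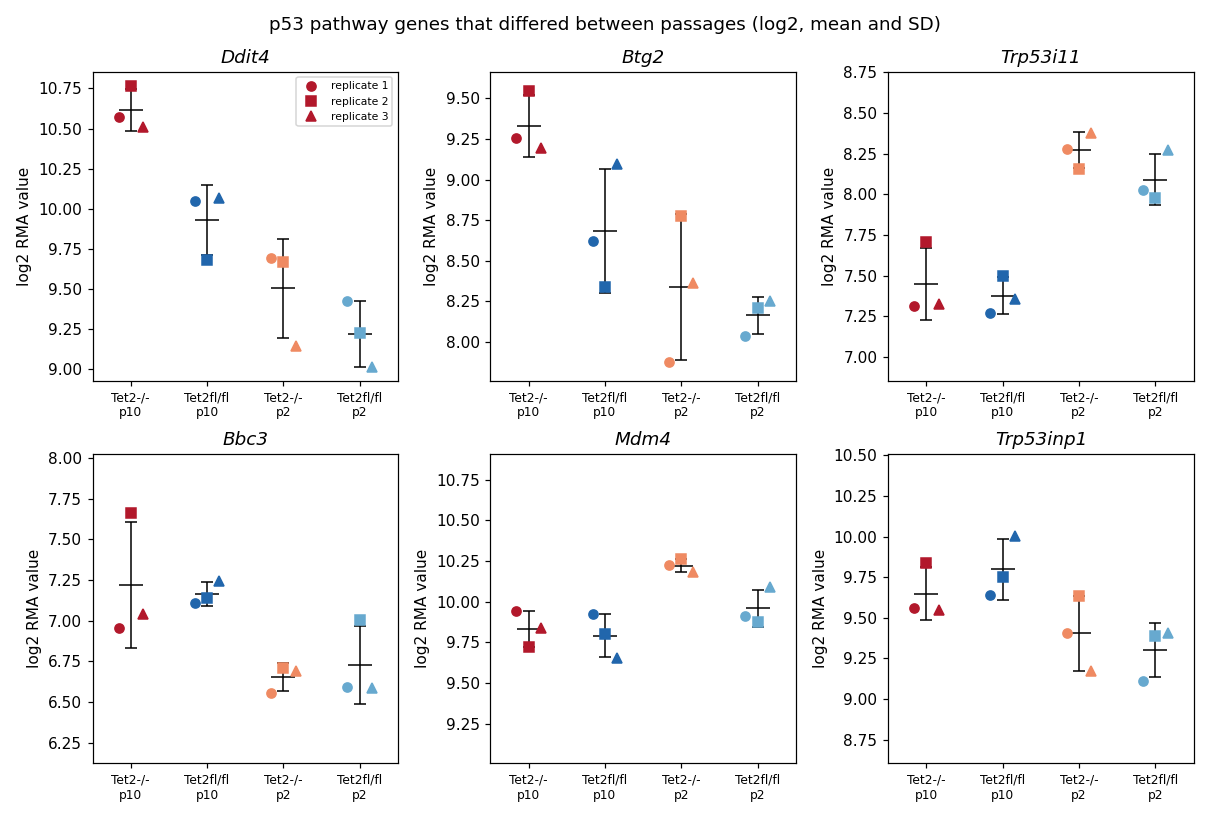
Log2 RMA values (vertical axes) of 6 pathway genes by group (horizontal axes), with circles, squares and triangles for replicates 1, 2 and 3 and bars for the mean and SD of 3 arrays. Ddit4, Btg2, Bbc3 and Trp53inp1 are higher and Trp53i11 and Mdm4 lower at passage 10, and all 6 passage 10 arrays of Trp53i11 lie below all 6 of passage 2.

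Among genes for cell death, Bbc3 (Puma), a BH3-only protein that opens the mitochondrial route to apoptosis, rose at passage 10. It had 6.96, 7.66 and 7.04 at passage 10 against 6.55, 6.71 and 6.69 at passage 2 in Tet2-/- cells. The Tet2fl/fl values were 7.11, 7.14 and 7.25 at passage 10 against 6.59, 7.01 and 6.59 at passage 2. The passages did not overlap in either genotype, and the mean effect was 0.50 ± 0.12 (1.42-fold, adjusted p = 0.033). Its call was lost, at the adjusted p in brackets, on leaving out Tet2-/- p2 replicate 1 (0.0756) or 3 (0.0638), Tet2fl/fl p10 replicate 2 (0.0577) or 3 (0.0721), or Tet2fl/fl p2 replicate 1 (0.0538) or 3 (0.0864). In Tet2-/- cells alone Bbc3 passed with the block and not without it (0.57 ± 0.17, adjusted p = 0.0927, with the block 0.0338), and its difference was 0.35 without Tet2-/- p10 replicate 2, the highest array. Pmaip1 (Noxa), another BH3-only gene, had a mean effect of 0.26 ± 0.08 (adjusted p = 0.0813), and the death receptor gene Tnfrsf10b 0.24 ± 0.12 (adjusted p = 0.219). The death receptor gene Fas (0.04) and Ei24, which encodes an endoplasmic reticulum protein (0.02), had small differences, and Perp, a membrane protein gene, had 0.15 and the exonuclease gene Aen 0.11. Of the 8 death genes tested, 7 were positive, as were 59.8% of all genes, and 1, Trp53i11, was negative. Of 11 genes of the BCL2 family outside the pathway list, 10 were positive with a median of 0.0777, and the BH3-only gene Bcl2l11 (Bim) passed (0.45 ± 0.10, adjusted p = 0.0286).

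Regulators of p53 itself differed among themselves. Mdm4, which binds p53 and blocks its activity, had 9.94, 9.72 and 9.84 at passage 10 against 10.22, 10.26 and 10.18 at passage 2 in Tet2-/- cells. Values of Tet2fl/fl cells were 9.92, 9.80 and 9.65 at passage 10 against 9.91, 9.87 and 10.09 at passage 2. The passages were apart in Tet2-/- cells and overlapped in Tet2fl/fl cells. The mean effect was -0.28 ± 0.07 (adjusted p = 0.0327). In Tet2-/- cells alone Mdm4 passed with the block (-0.39 ± 0.09, adjusted p = 0.051, with the block 0.038). The mean effect of Mdm4 missed the threshold without 8 of the 12 arrays in turn (adjusted p 0.081 at most). These were Tet2-/- p10 replicates 2 and 3, Tet2-/- p2 replicates 1 to 3, Tet2fl/fl p10 replicates 2 and 3 and Tet2fl/fl p2 replicate 3.

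Mdm2, the ubiquitin ligase that marks p53 for degradation and is its direct target, had 10.26, 10.44 and 10.42 at passage 10 against 10.04, 10.18 and 10.09 at passage 2 in Tet2-/- cells. In Tet2fl/fl cells it had 10.16, 10.44 and 10.57 at passage 10 against 10.13, 10.36 and 10.17 at passage 2. The passages were apart in Tet2-/- cells and overlapped in Tet2fl/fl cells, and every replicate number was higher at passage 10 in both genotypes. The mean effect was 0.22 ± 0.08 and passed with the block (adjusted p = 0.104, with the block 0.0431), and without the block when Tet2fl/fl p10 replicate 1 was left out (0.0396).

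Trp53inp1, a nuclear stress protein that promotes p53 phosphorylation, had 9.56, 9.84 and 9.55 at passage 10 against 9.41, 9.63 and 9.17 at passage 2 in Tet2-/- cells, which overlapped. In Tet2fl/fl cells it had 9.64, 9.75 and 10.00 at passage 10 against 9.11, 9.39 and 9.40 at passage 2, which did not. Its mean effect was 0.37 ± 0.10 (adjusted p = 0.0464), and it missed the threshold in all but 2 of the 12 fits that left out an array (Tet2-/- p2 replicate 2 and Tet2fl/fl p10 replicate 1) (adjusted p 0.107 at most). It also did so with no filter on dim rows (0.0605). The phosphatase gene Ppm1d, whose product removes activating phosphates from p53, had 0.04 ± 0.08.

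Cdkn1a, the p21 gene and the best known p53 target, had 11.82, 11.90 and 11.71 at passage 10 against 11.79, 11.98 and 11.66 at passage 2 in Tet2-/- cells. In Tet2fl/fl cells it had 11.81, 12.17 and 12.03 at passage 10 against 11.89, 12.02 and 11.91 at passage 2. The passages overlapped in both genotypes, and the mean effect was 0.03 ± 0.08 (adjusted p = 0.834). Ccng1, a cyclin gene that feeds back on Mdm2, had 0.09 ± 0.07 (adjusted p = 0.465), and the polo-like kinase genes Plk2 and Plk3 had -0.07 and -0.01. The stress sensor gene Gadd45b had 0.04. Of the 6 genes with a p53 element in the promoter window, 1, Bbc3, passed for passage, where 7.77% of all genes did. The mean effects of the other 5, Cdkn1a, Ccng1, Aen, the sestrin gene Sesn1 and Tigar, were 0.03, 0.09, 0.11, 0.08 and -0.08. Trp53inp1, which passed, had no window to search, nor had Zmat3 and Xpc.

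Sesn2, Zmat3 and Xpc also passed for the mean passage effect with the block. Sesn2, a sestrin that restrains mTORC1 under stress, had 9.10, 9.52 and 9.33 at passage 10 against 8.95, 9.35 and 9.11 at passage 2 in Tet2-/- cells, and 9.20, 9.86 and 9.64 at passage 10 against 9.16, 9.51 and 9.30 at passage 2 in Tet2fl/fl cells. The passages overlapped, while each replicate number was higher at passage 10 than at passage 2 (0.21 ± 0.12, adjusted p = 0.282, with the block 0.0369), and the difference was 0.14 without Tet2fl/fl p10 replicate 2. Zmat3, which encodes an RNA-binding zinc finger protein, had 7.78, 8.81 and 7.86 at passage 10 against 7.95, 8.06 and 7.68 at passage 2 in Tet2-/- cells, and 8.36, 8.92 and 8.68 at passage 10 against 7.75, 8.41 and 8.15 at passage 2 in Tet2fl/fl cells. Replicate 2 was its highest array in all 4 groups, and the mean effect was 0.40 ± 0.19 (adjusted p = 0.192, with the block 0.0495), or 0.24 without Tet2-/- p10 replicate 2. Xpc, the sensor of nucleotide excision repair, had 8.18, 8.67 and 8.22 at passage 10 against 7.90, 8.06 and 7.99 at passage 2 in Tet2-/- cells, and 8.12, 8.01 and 8.14 at passage 10 against 7.75, 8.06 and 7.80 at passage 2 in Tet2fl/fl cells. Its passages were apart in Tet2-/- cells only (0.30 ± 0.09, adjusted p = 0.0722, with the block 0.0373). The other repair genes, Rrm2b for a ribonucleotide reductase subunit and Polk for a translesion polymerase, had -0.07 and 0.14, and Phlda3, an inhibitor of Akt, had 0.46 ± 0.20 (adjusted p = 0.177).

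In Tet2-/- cells alone 3 of 27 pathway genes passed for passage (2.98% of all genes did): Ddit4 and Btg2, which rose, and Trp53i11, which fell. With the block 5 did (7.94% of all genes), Bbc3 and Mdm4 being the added ones. Without the block 7 of 27 had an unadjusted p under 0.05 (21.6% of all genes). None of the 3 passed when the other genotype's arrays were kept out of the model (adjusted p = 0.0534 for Ddit4, 0.0747 for Btg2 and 0.0547 for Trp53i11). That model called 0 of all 16860 genes, against 503 in the model of all arrays. None of the 3 passed without Tet2-/- p10 replicate 1, 2 or 3 or Tet2-/- p2 replicate 1 or 3. Leaving out Tet2-/- p10 replicate 1 left 2 calls over all 16860 genes. Btg2 also lost its call on leaving out Tet2fl/fl p10 replicate 1 (0.0516) or Tet2fl/fl p2 replicate 1 (0.0537), 2 (0.0595) or 3 (0.0524), arrays that enter through the shared estimate of the spread. In Tet2fl/fl cells alone limma called no pathway gene (0% of all genes), and with the block none either (0.0415%), and 7 of 27 had an unadjusted p under 0.05 (10.2% of all genes did), or 10 with the block (14% of all genes). Leaving out Tet2fl/fl p10 replicate 3 or Tet2fl/fl p2 replicate 1 turned the 7 into 3, and leaving out Tet2fl/fl p10 replicate 1 turned it into 12. Counts over all genes are not given for these fits. Median differences of the 27 genes were 0.082 in Tet2-/- cells, against 0.0382 for all genes, and 0.148 in Tet2fl/fl cells, against 0.0306 for all genes. The first median was 0.126 without Tet2-/- p2 replicate 3. The second was 0.227 without Tet2fl/fl p10 replicate 1 and 0.0759 without Tet2fl/fl p10 replicate 3.

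**Figure D2:**
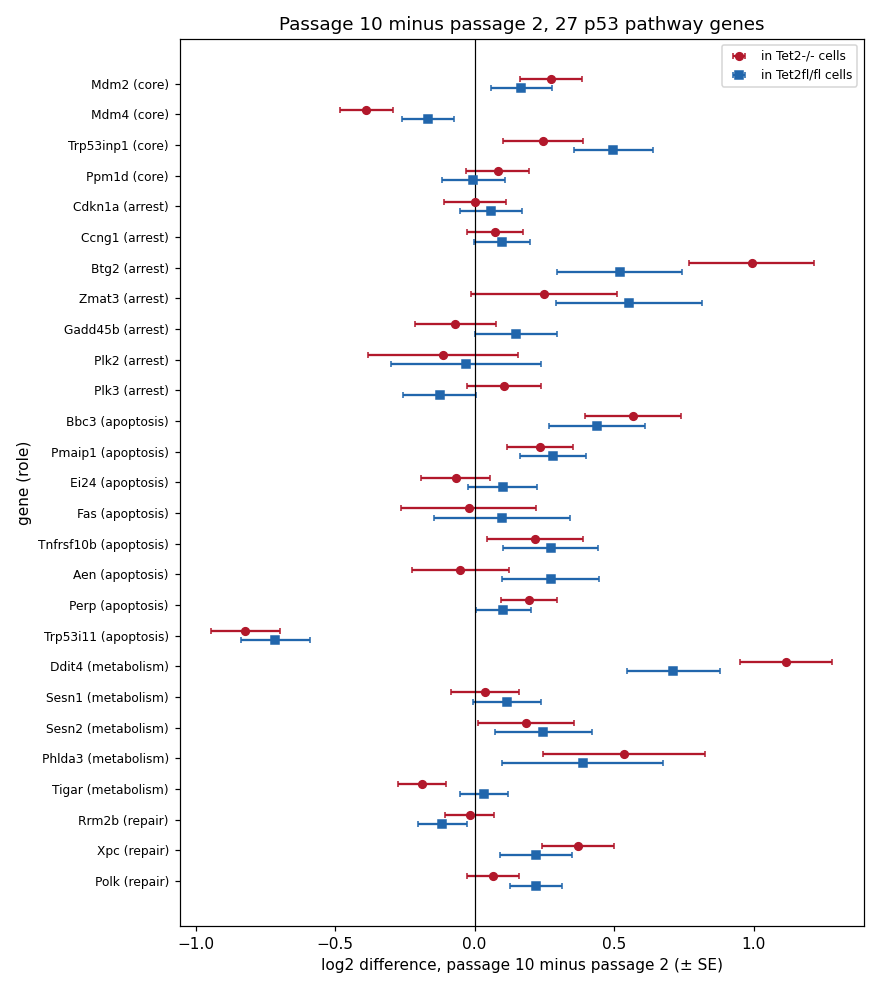
Differences between passage 10 and passage 2 (horizontal axis, log2, with standard errors) for the 27 pathway genes, ordered by role, with circles for Tet2-/- cells and squares for Tet2fl/fl cells. Ddit4, Btg2 and Bbc3 lie to the right and Trp53i11 to the left of 0 in both genotypes, while Cdkn1a and Ccng1 lie near 0.

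The rest of the pathway was read from 3 lists. Of 40 tested further p53 targets, 3 rose and 1 fell in the mean passage comparison, where 7.77% of all genes passed, with a median of 0.0995. With the block 8 were higher and 3 lower, where 13.2% of all genes passed. Those that rose were the autophagy kinase gene Ulk1 (0.34, adjusted p = 0.0382), the growth factor binding protein gene Igfbp3 (0.33, adjusted p = 0.0269) and the lipase gene Abhd4 (0.29, adjusted p = 0.0282). The one that fell was Pcna (-0.30, adjusted p = 0.0226), the sliding clamp of DNA replication. Of 26 upstream kinases, ligases and cofactors, 1 rose and 5 fell, with a median of -0.046, and with the block 2 were higher and 7 lower. Kinase genes that signal DNA damage to p53 were among those that fell: Chek1 (-0.61, adjusted p = 0.0162), Atr (-0.42, adjusted p = 0.0106), Atm (-0.34, adjusted p = 0.0433) and Prkdc (-0.32, adjusted p = 0.013). Nucleolin (Ncl) fell by 0.26 (adjusted p = 0.0289), and Ppp1r13b, an ASPP cofactor of p53, rose (0.32, adjusted p = 0.0362).

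Of 33 tested cell cycle genes of the kind that DREAM represses, 21 fell, where 7.77% of all genes passed. All 33 fell with the block, where 13.2% of all genes passed. All 33 had negative mean passage differences, with a median of -0.497, while 6783 of all 16860 genes were negative. Those with the largest differences were the kinesin gene Cenpe (-0.70, adjusted p = 0.0161), the cytokinesis gene Anln (-0.70, adjusted p = 0.0211) and the spindle checkpoint kinase gene Bub1 (-0.69, adjusted p = 0.013). The mean log2 level of the 33 genes was 8.52 to 9.004 in Tet2-/- and 8.48 to 8.78 in Tet2fl/fl cells at passage 10, and 8.97 to 9.55 in Tet2-/- and 9.05 to 9.40 in Tet2fl/fl cells at passage 2. Cdkn1a, whose product acts on that complex, had a mean passage difference of 0.03 on the same arrays. These are transcript levels, and the part of p21 in the fall of the cell cycle genes was not tested. Of 10 tested granule genes of maturing neutrophils, 8 had negative mean passage differences, with a median of -0.737. Ngp, a granule protein gene, fell (-1.81, adjusted p = 0.0275), and with the block Mmp8, S100a8 and S100a9 passed too. Their mean log2 level was 6.79 to 7.59 in Tet2-/- and 6.51 to 8.25 in Tet2fl/fl cells at passage 10, and 7.82 to 8.56 in Tet2-/- and 7.77 to 9.16 in Tet2fl/fl cells at passage 2. All 7 megakaryocyte markers tested were positive with a median of 0.308, and the platelet chemokine gene Ppbp rose (1.75, adjusted p = 0.014), with Itga2b added by the block. Among stress genes outside the pathway, Asns of the ATF4 response (16 tested, median -0.0543) and Myc of the immediate early genes (19 tested, median 0.231) fell by 0.91 and 0.41 (adjusted p = 0.0211 and 0.0376). None of 12 feedback genes of NF-kB passed without the block (median 0.138), and Nfkbia (0.39) and Nfkbie (0.30) did with it. The part of these genes and cells in the differences of the pathway genes was not tested. In bulk samples fewer cells of a type and less RNA per cell cannot be told apart.

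**Figure D3:**
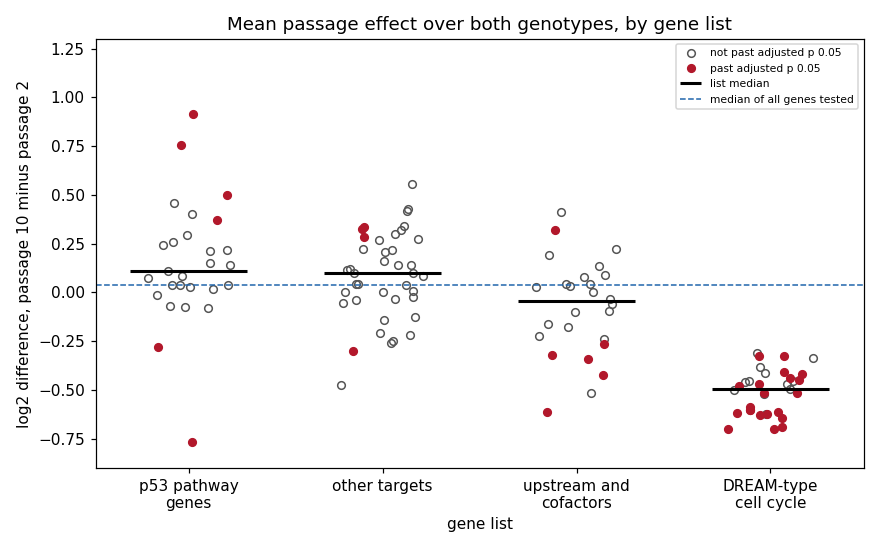
Mean passage effect over both genotypes (vertical axis, log2, passage 10 minus passage 2) for each gene of 4 lists (horizontal axis), with filled points for genes past an adjusted p of 0.05, black bars for list medians and a dashed line for the median of all genes. The medians are 0.11 for the 27 pathway genes, 0.0995 for other targets, -0.046 for upstream genes and -0.497 for DREAM-type cell cycle genes.

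The second comparison set Tet2-/- against Tet2fl/fl cells. No pathway gene passed at passage 10, where 0.225% of all genes did, or at passage 2, where 0.00593% did, and none passed with the block (1.31% of all genes at passage 10 and 0.409% at passage 2). At an unadjusted p under 0.05 there were 4 of 27 at passage 10 (10.6% of all genes) and 2 of 27 at passage 2 (9.95%), or 11 and 5 with the block (14.5% and 13.4%). The 4 became 12 without Tet2fl/fl p10 replicate 1 and 7 without Tet2-/- p10 replicate 2. The 2 became 4 when either replicate 2 or replicate 3 of Tet2-/- cells at passage 10, or replicate 1 of Tet2fl/fl cells at that passage, was dropped, and 1 without Tet2fl/fl p2 replicate 2. The median difference of the 27 genes was -0.0851 at passage 10, against -0.0085 for all genes, with 17 of 27 negative (8867 of all 16860 genes). With 1 array left out it ran from -0.152 (Tet2-/- p10 replicate 2) to -0.0463 (Tet2fl/fl p10 replicate 3), with -0.131 without Tet2fl/fl p10 replicate 1 and -0.0513 without Tet2-/- p10 replicate 3. At passage 2 it was -0.0521, against -0.00289 for all genes, with 16 of 27 negative (8570 of all 16860 genes). This median turned positive, 0.00636, without Tet2fl/fl p2 replicate 2. It was -0.126 without Tet2fl/fl p2 replicate 1, -0.096 without Tet2-/- p2 replicate 3 and -0.0154 without Tet2-/- p2 replicate 1. For the mean of both genotype effects no pathway gene passed without the block, where 1.72% of all genes did, 8 of 27 had an unadjusted p under 0.05 (16.1% of all genes; 17 with the block, against 20.4%), and Ddit4 and Plk2 passed with it (5.41% of all genes). The 8 became 14 without Tet2fl/fl p10 replicate 1 and 5 without Tet2-/- p2 replicate 2. Counts over all genes are not given for these fits of the mean genotype effect. Ddit4 also passed without the block when Tet2-/- p2 replicate 3 was left out (0.0281), and Plk2 when Tet2fl/fl p10 replicate 1 was (0.0429).

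Ddit4 averaged 10.62 ± 0.133 (SD, n = 3) in Tet2-/- and 9.93 ± 0.218 in Tet2fl/fl cells at passage 10, and 9.50 ± 0.311 in Tet2-/- and 9.22 ± 0.205 in Tet2fl/fl cells at passage 2. The genotypes did not overlap at passage 10 and overlapped at passage 2, and each replicate number was higher in Tet2-/- cells at both passages. The difference was 0.69 ± 0.17 at passage 10 (adjusted p = 0.136, with the block 0.06), while passage 2 had 0.28 ± 0.17 (adjusted p = 0.619). The mean genotype effect was 0.49 ± 0.12 (adjusted p = 0.0631, with the block 0.0313). Ddit4 is also a known target of the hypoxia response, and all 15 tested hypoxia genes of a separate list were higher in Tet2-/- cells at both passages, with medians of 0.547 at passage 10 and 0.265 at passage 2, none of which passed without the block. With the block 11 of the 15 passed for the mean genotype effect (median 0.37), where 5.41% of all genes did. Their mean log2 level was 10.45 to 10.70 in Tet2-/- and 9.57 to 10.45 in Tet2fl/fl cells at passage 10. At passage 2 it was 10.37 to 10.60 in Tet2-/- and 9.90 to 10.47 in Tet2fl/fl cells. Over both genotypes the median passage difference of these 15 genes was -0.116, and the difference of Ddit4 was 0.91. The part of a hypoxia response in the genotype and passage differences of Ddit4 was not tested.

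Plk2, a polo-like kinase gene induced by stress, had 5.16, 5.54 and 5.53 in Tet2-/- cells against 5.51, 6.09 and 6.58 in Tet2fl/fl cells at passage 10. At passage 2 it had 5.22, 5.61 and 5.74 in Tet2-/- cells against 5.64, 6.48 and 6.15 in Tet2fl/fl cells. The groups overlapped at both passages, replicate 1 was the lowest array in every group, and each of the 6 pairs with the same replicate number was lower in Tet2-/- cells. The mean genotype effect was -0.61 ± 0.19 and passed with the block (adjusted p = 0.134, with the block 0.0129). Its relative Plk3 had 8.75, 8.52 and 8.98 in Tet2-/- cells against 8.69, 9.01 and 9.06 in Tet2fl/fl cells at passage 10, and 8.50, 8.72 and 8.72 in Tet2-/- cells against 8.99, 9.15 and 9.0045 in Tet2fl/fl cells at passage 2. The genotypes of Plk3 were apart at passage 2 and overlapped at passage 10, with a mean effect of -0.29 ± 0.09 (adjusted p = 0.15, with the block 0.079).

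**Figure D4:**
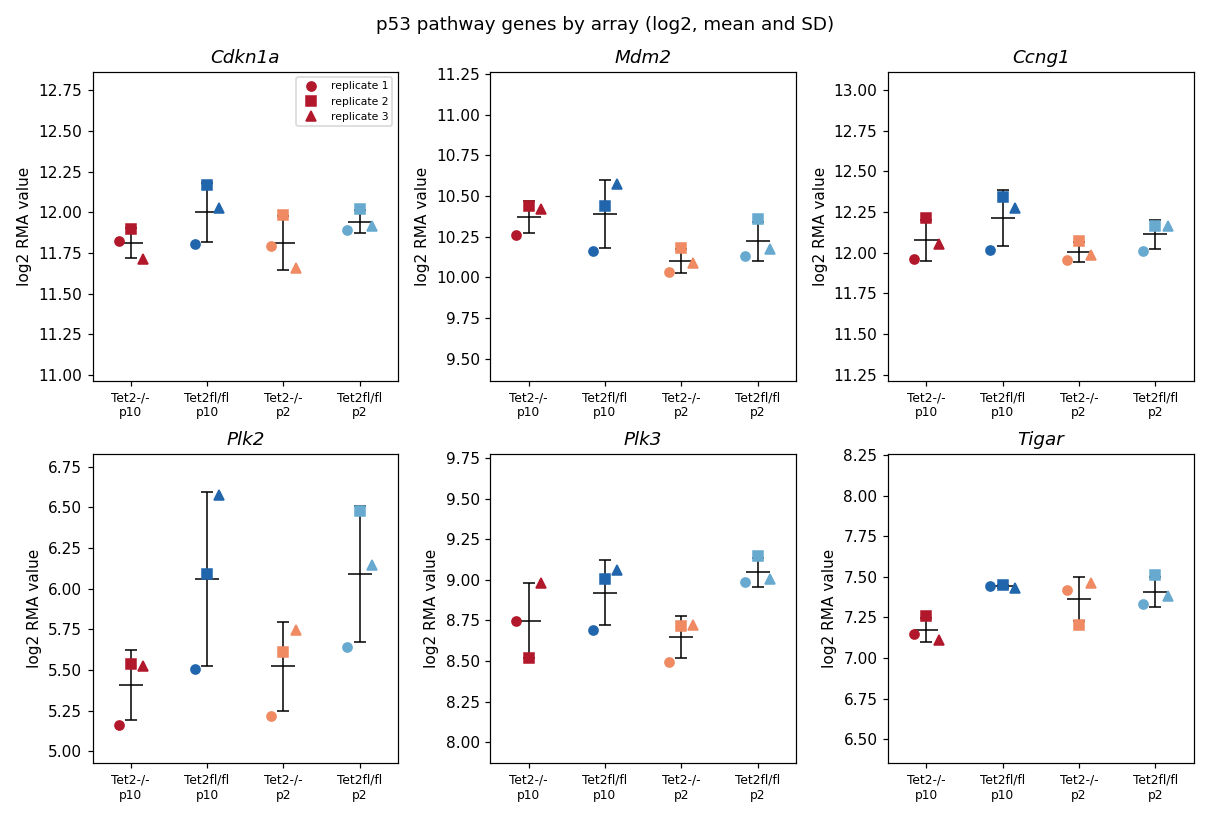
Log2 RMA values (vertical axes) of 6 pathway genes by group (horizontal axes), with circles, squares and triangles for replicates 1, 2 and 3 and bars for the mean and SD of 3 arrays. Groups of Cdkn1a and Ccng1 overlap, Plk2 is lower in Tet2-/- cells within each replicate number, and Tigar has its lowest mean (7.17) in Tet2-/- cells at passage 10.

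Tigar encodes a fructose bisphosphatase that lowers glycolytic flux. It had 7.15, 7.26 and 7.11 in Tet2-/- cells against 7.44, 7.45 and 7.43 in Tet2fl/fl cells at passage 10. At passage 2 it had 7.42, 7.21 and 7.46 in Tet2-/- cells against 7.33, 7.51 and 7.38 in Tet2fl/fl cells. The genotypes were apart at passage 10 and overlapped at passage 2. The difference was -0.27 ± 0.09 at passage 10 (adjusted p = 0.276), while passage 2 had -0.05 ± 0.09 (adjusted p = 0.905), and the difference between these effects was -0.22 (adjusted p = 0.999). Btg2 was apart at passage 10, with 9.33 ± 0.189 (SD, n = 3) in Tet2-/- and 8.68 ± 0.383 in Tet2fl/fl cells (0.65 ± 0.22, adjusted p = 0.315). Mdm4 was apart at passage 2, with 10.22 ± 0.040 in Tet2-/- and 9.96 ± 0.116 in Tet2fl/fl cells (0.26 ± 0.09, adjusted p = 0.393).

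The classical targets Cdkn1a, Mdm2 and Ccng1 overlapped between the genotypes at both passages. Cdkn1a differed by -0.19 ± 0.11 at passage 10 (adjusted p = 0.61), and at passage 2 by -0.13 ± 0.11 (adjusted p = 0.74). Mdm2 differed by -0.02 ± 0.11 at passage 10 and -0.12 ± 0.11 at passage 2, and Ccng1 by -0.13 and -0.11. Differences at passage 10 were also negative for Zmat3 (-0.51), Aen (-0.37), Fas (-0.35), Tnfrsf10b (-0.35), Phlda3 (-0.35), Sesn2 (-0.25) and Ei24 (-0.23), none of which passed. On the positive side were Xpc (0.26) and Perp (0.22), whose genotypes did not overlap at passage 10. Genotypes without overlap were seen for 5 of 27 genes at passage 10 (16.4% of all genes) and for 6 of 27 at passage 2 (15.3%).

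**Figure D5:**
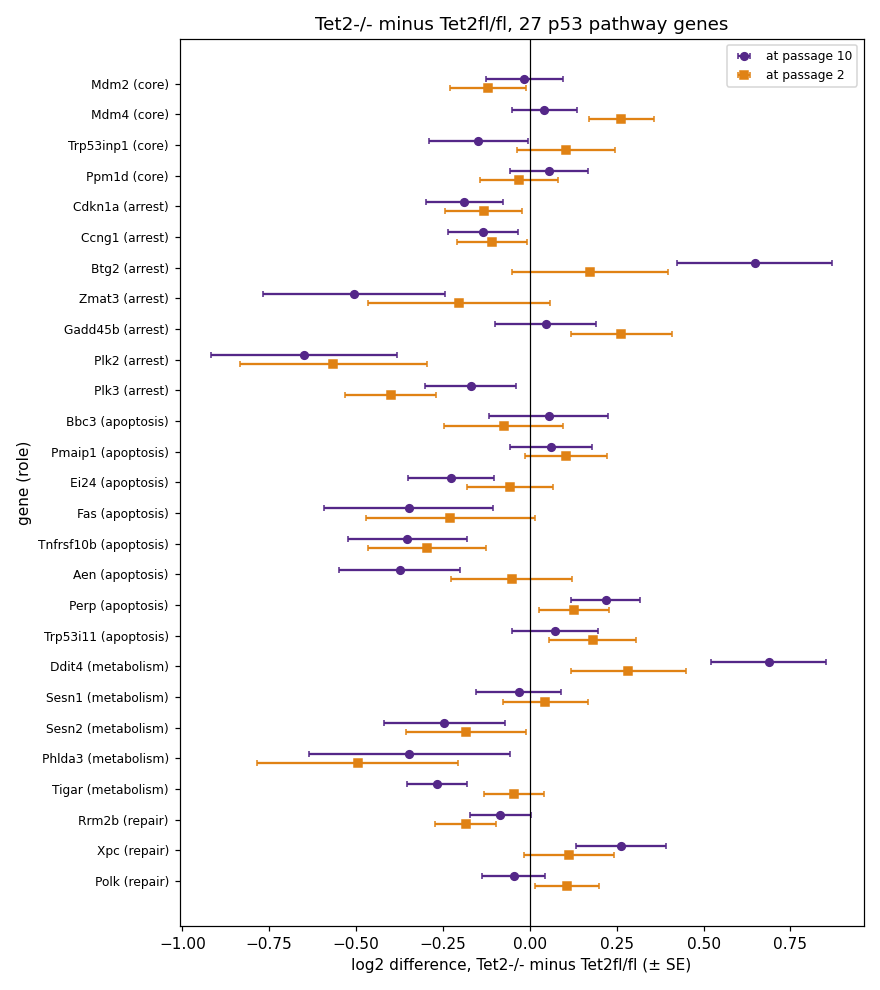
Differences between Tet2-/- and Tet2fl/fl cells (horizontal axis, log2, with standard errors) for the 27 pathway genes, ordered by role, with circles for passage 10 and squares for passage 2. Ddit4 and Btg2 lie furthest to the right and Plk2 furthest to the left at passage 10 (0.69, 0.65 and -0.65).

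Of 40 further targets and 26 upstream genes of the pathway none passed for genotype at either passage or in the mean without the block. With it, 3 further targets and 1 upstream gene passed for the mean genotype effect, where 5.41% of all genes did. They were Lif (0.62, adjusted p = 0.0169), Nqo1 (-0.79, adjusted p = 0.0339), Rprm (-0.79, adjusted p = 0.023) and Atr (0.28, adjusted p = 0.0258). By sign alone, 31 of 40 further targets were negative at passage 10 (median -0.0767) and 24 of 40 at passage 2 (median -0.0197). Of all 16860 genes, 8867 were negative at passage 10 and 8570 at passage 2. Of 12 markers of mast cells and basophils, 10 had negative differences at each passage, and none passed at either without the block (3 at passage 10 and 1 at passage 2 with it). In the mean over passages the protease gene Tpsab1 (-1.43, adjusted p = 0.0124) and Kit (-0.82, adjusted p = 0.022), a receptor gene that progenitors share, fell, and 6 passed with the block. Their mean log2 level was 10.37 to 11.02 in Tet2-/- and 11.27 to 11.51 in Tet2fl/fl cells at passage 10, and 10.72 to 10.94 in Tet2-/- and 11.23 to 11.31 in Tet2fl/fl cells at passage 2. Of the 6 genes for the sorting markers none passed for genotype or passage. The immediate early gene Nr4a1 fell in the mean over passages (-0.54, adjusted p = 0.0157). No marker of eosinophils (7 tested, median -0.966 for the mean genotype effect), monocytes (9, 0.215), erythroid cells (4, 0.0324), T and NK cells (6, -0.0567) or B cells (5, -0.0265) passed for genotype without the block. With it Epx and Il5ra of eosinophils (-2.22 and -0.97), Adgre1 of monocytes (0.26) and Thy1 of T cells (0.52) passed for the mean genotype effect, and the monocyte genes Ccr2 and Cd68 for the mean passage effect. For passage Tfrc of the erythroid list fell by 0.64 (adjusted p = 0.0169) and Pax5 of the B cell list rose (0.34, adjusted p = 0.0475). The part of these cells in the genotype differences of the pathway genes was not tested.

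The third comparison asked whether the effect of genotype differed between the passages. Limma called no pathway gene (0% of all genes), and with the block none either (0.00593%), and none had an unadjusted p under 0.05 (3.22% of all genes did). The median of the 27 interaction differences was -0.056, against -0.00552 for all genes, and its sign rests on single arrays. It was positive without Tet2-/- p10 replicate 1 (0.0385), Tet2fl/fl p10 replicate 3 (0.0259), Tet2-/- p2 replicate 2 (0.00902) or Tet2fl/fl p2 replicate 1 (0.0154). The lowest values were -0.136 without Tet2fl/fl p10 replicate 1 and -0.127 without Tet2-/- p10 replicate 2.

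The pathway genes also varied together by replicate number. Averaged over the 27 genes, replicates 1 to 3 lay at log2 8.77, 9.04 and 8.84 in Tet2-/- cells and at 8.81, 8.96 and 9.09 in Tet2fl/fl cells at passage 10. At passage 2 they lay at 8.69, 8.81 and 8.73 in Tet2-/- cells and at 8.68, 8.89 and 8.81 in Tet2fl/fl cells. Replicate 1 was the lowest array in each group. Averaged over all 16860 genes, it was also the lowest in every group but Tet2fl/fl p2, with all 12 arrays between 7.33 and 7.37. At passage 10 replicate 1 held the lowest value for 15 of 27 genes in Tet2-/- cells (41.3% of all genes) and for 17 of 27 in Tet2fl/fl cells (37.4%). At passage 2 it did so for 12 of 27 in Tet2-/- cells (32.5%) and for 19 of 27 in Tet2fl/fl cells (36.7%). Replicate 2 was the highest for 21 of 27 in Tet2-/- cells at passage 10 (43.5% of all genes) and for 8 of 27 in Tet2fl/fl cells (36.9%). In the latter replicate 3 was the highest for 17 (31.9%). At passage 2 replicate 2 was the highest for 13 of 27 in Tet2-/- cells (33.7%) and for 18 of 27 in Tet2fl/fl cells (34.1%). The labels do not say what the replicate numbers stand for.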

How the data were processed

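Total RNA of 12 sorted samples, 100 ng each, was hybridised to Affymetrix Mouse Gene ST 2.0 arrays, 3 for each genotype and passage. The deposited table holds log2 values that the authors made with RMA in Affymetrix Power Tools, per the submitters' processing notes; RMA corrects background, normalizes between arrays and summarises probes, and no version or parameter is given in the sources used here. Of 41345 rows, 23521 had 1 gene symbol in the platform annotation, 1814 had several and 16010 none; rows with 1 symbol were used, and 23328 of them matched RefSeq by gene ID. Rows with a mean under the 30th percentile (log2 4.70) were left out. For each gene the row with the highest mean was kept, and 16860 genes were tested.

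Groups came from the genotype and passage labels. A model with a mean for each of the 4 groups, over the 12 arrays, was made in limma 3.58.1 (R 4.3.3; 8 residual degrees of freedom, 3.328 prior), and p-values of its moderated test were adjusted over all genes by Benjamini-Hochberg, two-sided, at 0.05. The code was tested on simulated data. The replicate numbers come from the sample titles: deviations from group means correlated at 0.201 to 0.517 in 18 pairs with the same number and at -0.369 to 0.0532 in 36 other pairs, so the numbers were taken to pair the samples.

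The pathway genes, the other gene lists and the tests were chosen with earlier results of these data known. Values in every array are given for Cdkn1a and Mdm2, for genes past the threshold with or without the block and for the 3 smallest p-values in each comparison; from the other lists, genes past the threshold are named, and from long lists those with the largest differences. Genes of the other lists that passed with the block alone, and Ly6g, were named after their values were seen. Alternatives were other filters, row choices, normalizations, priors, array weights and blocks, models of just the arrays that a comparison uses, and leaving out single arrays in turn.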

Additional observations from a re-analysis of the deposited data

How the results depend on the processing

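Of 302 counts and medians recomputed under 10 settings and 12 fits that each left out 1 array, 281 stayed within 1.5 times the reported count or within the spread between replicates. That spread was log2 0.116, larger than most of the medians, so a median could change sign and still count as kept. The total is thus no measure of how stable the medians were. Of 644 recomputed differences of named pathway genes, none reversed, 569 kept their side of the threshold, 51 lost a call and 24 gained one. The genes were picked as those called, or with the 3 smallest p-values, in the same comparison. Several settings change the test and not the difference, so no reversal was possible there. Most of these differences had not passed in the reported fit and had no call to lose. In Tet2-/- cells 3 pathway genes passed for passage (503 of all 16860 genes). With array weights 5 did (1728 of all genes), with the replicate block 5 (1339) and in the fit to only the arrays compared 0 (0). With 1 array left out 0 to 4 did. For the mean genotype effect 0 pathway genes passed (290 of all genes). There 2 did with array weights (776 of all genes), 2 with the replicate block (912), 1 with a random replicate block (678) and 1 with a trended and robust prior (414). With 1 array left out it was 0 to 1. For the mean passage effect, where 6 passed (1310 of all genes), 10 did with the replicate block (2223), and 2 to 8 with 1 array left out. The 2 were reached without Tet2-/- p2 replicate 3 or Tet2fl/fl p2 replicate 3. Shares over all genes are not given for the ranges with 1 array left out. These ranges therefore do not show whether the pathway genes changed more than other genes. The cause was not tested, except that fits with fewer arrays have fewer degrees of freedom. The replicate block changed no call of a pathway gene other than those named. At an unadjusted p under 0.05 the mean genotype effect had 17 pathway genes with the block (20.4% of all genes), 14 with array weights (21.4%) and 13 with the random block (18.8%), against 8; the genotype difference had 11 (14.5%), 7 (12.7%) and 9 (13%) at passage 10, against 4, and 5 (13.4%), 6 (17%) and 4 (12%) at passage 2, against 2. Over all genes the calls ranged from 0 to 1728 (reported 503) for passage in Tet2-/- cells, from 970 to 2223 (1310) for the mean passage effect, from 218 to 912 (290) for the mean genotype effect and from 3 to 221 (38) for genotype at passage 10. With 3 arrays a group and no replicate block, differences of the size of most pathway genes could not be told from the spread between arrays. This does not hold for the mean effects with the block, where 17 pathway genes had an unadjusted p under 0.05 for genotype. For the mean passage effect 14 did with the block (31.5% of all genes), against 11 without it (26.8%). After adjustment 2 passed with the block for the mean genotype effect and 10 for the mean passage effect.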
